A study of Sus scrofa with 12 samples.

Results

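The genes of the troponin complex were described in the Semimembranosus muscle, a muscle of the ham, of 12 Italian Large White pigs. Members were the rows of the count table whose Ensembl identifier carries 1 of 8 troponin names, namely the slow skeletal genes TNNT1, TNNI1 and TNNC1, the fast skeletal genes TNNT3, TNNI2 and TNNC2, and the cardiac genes TNNT2 and TNNI3. Of these, 7 had a row with counts among the 25880 genes listed, and all 7 were among the 14262 genes tested. TNNI3 was not analysed here. The pigs formed a high IMF group and a low IMF group, of 6 animals each, selected by the study for opposite extremes of intramuscular fat (IMF). All were purebred, had the same housing and feed, and received no treatment. Each group was recorded as 3 gilts and 3 barrows (castrated males), slaughtered at 234 to 244 days of age in the high IMF group and at 229 to 249 days in the low IMF group. Animals with a shared parent were not chosen, and each library came from 1 pig. The question addressed here is how much slow and fast troponin message each pig held and whether this differed with IMF.

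Troponin is the calcium switch of the thin filament. Troponin C binds the calcium released in the fibre, troponin I holds actin and myosin apart until that happens, and troponin T anchors the complex on tropomyosin. Slow-twitch fibres and fast-twitch fibres each use their own form of every subunit, encoded by a separate gene, while TNNC1 serves both slow fibres and the heart. The ratio of slow to fast troponin message is therefore commonly read as a measure of fibre type composition. The samples are bulk tissue, so a smaller number of slow fibres and less slow troponin RNA in each fibre cannot be told apart.

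The libraries held from 131048805 to 178013997 counts, so counting error was small for all members other than TNNT2. In each pig this total exceeded the input reads that the study lists, so counts and input reads are not the same unit. The labels could be checked against 2 genes of the Y chromosome. The pigs divided into those with at least 3734 and those with at most 6 such counts, and 6 of the 12 pigs, 2 of high and 4 of low IMF, went against their labelled sex. Whether the IMF group of these pigs holds was not tested, and the members' log2FC values, the ratios, the relations and the list counts are also given without these 6 pigs. An exchange of labels between pigs of the same sex would not show in these counts. The 6 pigs that matched are therefore not shown to be correctly labelled. The tissue label was met by the muscle fibre genes ACTA1, CKM, DES and PYGM, which ranked 9, 15, 46 and 20 by mean level among all genes. Of 7 heart muscle markers, 6 were in the table, of which NPPB had 0 counts in every pig, NKX2-5 at most 3 counts and TBX5 at most 19. The summed level of the 5 heart markers in the table other than MYH6 stayed between 0.194 and 4.66 CPM, the counts scaled to the normalized library size. MYH6 is set aside because no identifier carries the name of its near-identical neighbour MYH7, the slow myosin heavy chain, and the reads of both cannot be told apart. The 7 adipocyte markers summed to between 265 and 381 CPM in the high IMF group and between 141 and 556 CPM in the low IMF group. The medians of these sums were 343 CPM in the high and 366 CPM in the low IMF group, so the sum was not higher in high IMF. These sums were largely PLIN4, with a median of 270.5 CPM over the pigs, beside 36.5 for ADIPOQ and 21.0 for FABP4. They are therefore no close measure of adipocyte message, and the IMF labels were not borne out by them. Of the 7, 0 had an unadjusted p at or under 0.05, beside 10.4% of all genes tested.

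By the RefSeq annotation of Sscrofa11.1, the build of the files, several members lie side by side. TNNT1 (ENSSSCG00000025353, chr6:59351445-59365584) and TNNI3 lie 1243 bases apart on the minus strand. TNNT2 (ENSSSCG00000023031, chr10:23749528-23759696) and TNNI1 (ENSSSCG00000024061, chr10:23788279-23800554) are separated by 1 protein-coding gene, LAD1. TNNI2 (ENSSSCG00000033260, chr2:1251566-1253883) and TNNT3 (ENSSSCG00000031903, chr2:1297826-1316865) share a region of chromosome 2, both on the plus strand. TNNC1 (ENSSSCG00000011441, chr13:34591571-34594320) and TNNC2 (ENSSSCG00000007424, chr17:48025621-48026762) have no troponin gene beside them. The slow genes are thus on chromosomes 6, 10 and 13 and the fast genes on chromosomes 2 and 17, so that the slow members, whose levels moved together from pig to pig as described further on, are not neighbours.

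The 200 bases upstream of the start that more RefSeq transcripts share than any other, or of the outermost start where starts are tied, are shown for the slow genes TNNT1 and TNNC1, because their levels moved together, and for the fast genes TNNT3 and TNNI2. They run 5′ to 3′ on the strand of the gene, and capitals mark an E-box (CANNTG, the site of myogenic basic helix-loop-helix factors), an M-CAT core (CATTCC, the site of TEAD factors) or a TATA box (TATAAA), each searched on both strands, with no overlap between them.
TNNT1: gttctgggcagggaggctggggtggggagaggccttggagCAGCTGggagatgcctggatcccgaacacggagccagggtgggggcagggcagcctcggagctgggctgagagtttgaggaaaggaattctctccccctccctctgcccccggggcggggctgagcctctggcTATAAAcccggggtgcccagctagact
TNNC1: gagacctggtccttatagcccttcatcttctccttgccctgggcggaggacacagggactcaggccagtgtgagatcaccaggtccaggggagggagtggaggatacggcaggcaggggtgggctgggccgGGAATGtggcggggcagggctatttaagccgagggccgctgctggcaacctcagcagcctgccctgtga
TNNT3: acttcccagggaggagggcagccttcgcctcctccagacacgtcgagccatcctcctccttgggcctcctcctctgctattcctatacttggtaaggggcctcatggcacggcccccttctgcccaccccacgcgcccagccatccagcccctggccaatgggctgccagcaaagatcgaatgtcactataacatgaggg
TNNI2: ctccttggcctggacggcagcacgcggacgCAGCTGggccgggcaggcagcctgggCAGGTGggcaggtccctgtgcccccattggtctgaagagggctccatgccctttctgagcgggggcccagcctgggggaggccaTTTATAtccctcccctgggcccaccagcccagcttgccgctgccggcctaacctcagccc
These windows are chr6:59365286-59365485, chr13:34594321-34594520, chr2:1299162-1299361 and chr2:1251366-1251565 in the order shown. The start used is that of 5 of 16 transcripts of TNNT1 and 14 of 42 of TNNT3. Most transcripts of these 2 genes therefore start elsewhere, and both windows lie inside the annotated gene. TNNT1 had 1 E-box and a TATA box 27 bases before the start, TNNC1 had 1 M-CAT core and no E-box, TNNI2 had 2 E-boxes and a TATA box on the other strand, and TNNT3 had none of the 3. Among 19546 windows of this length before protein-coding genes, 53.5% held an E-box, 7.73% an M-CAT core and 7.54% a TATA box. TNNT1 and TNNC1 therefore shared none of these motifs in these windows. The window of TNNI1, whose level moved with theirs, is not shown. The start of TNNC2 is incomplete in the annotation, and its window is not shown.

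The muscle held far more fast than slow troponin message. Levels between genes are given as CPM per kb of the curated RefSeq transcript, as the mean over 12 pigs with its SD. TNNC2, the fast calcium-binding subunit, had 11489 ± 1408 CPM per kb and TNNT3, the fast tropomyosin-binding subunit, 10585 ± 1282. TNNC2 was above TNNT3 in 10 of 12 pigs, with ratios within a pig from 0.976 to 1.23, and the ranges of these neighbours over the pigs overlapped. The annotation of TNNC2 is incomplete, with 482 bases of which 481 are coding, so its level per kb may be too high. The transcript of TNNC1, with 497 bases, also holds little beyond its 486 coding bases. TNNI2, the fast inhibitory subunit, followed at 4156 ± 426 CPM per kb, below TNNT3 in 12 of 12 pigs. Among the slow genes, TNNC1 had 1427 ± 766 CPM per kb, TNNT1 483 ± 204 and TNNI1 280.2 ± 138 (SD, n = 12 each). The order TNNC1 above TNNT1 held in every pig. TNNT1 was above TNNI1 in 12 of 12 pigs per transcript length but in 9 of 12 per coding length, where TNNI1 reached 487 CPM per kb, so the order of these 2 genes depends on the length used. TNNT2 was last at 0.969 ± 0.658 CPM per kb. The 3 fast genes took from 1.31% to 1.90% of all counts of a pig and the 3 slow genes from 0.0543% to 0.242%.

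The slow form was not an equal share of each subunit. Of the message for troponin T, TNNT1 made up a median of 3.73% per length, with a range from 2.09% to 7.11% over the 12 pigs. For troponin I, TNNI1 made up 5.95% (from 2.72% to 11.2%), and for troponin C, TNNC1 made up 8.59% (from 4.24% to 19.2%). The slow share of troponin C exceeded that of troponin I in 12 of 12 pigs, or in 11 of 12 per coding length, and that of troponin I exceeded that of troponin T in 12 of 12 on either length. The protein complex holds 1 molecule of each subunit, whereas the messages per length were unequal. These shares and the compositions below rest on the annotated lengths, of which that of TNNC2 is incomplete. Within the fast set, TNNC2, TNNT3 and TNNI2 had medians of 43.8%, 39.9% and 16.1% of the summed CPM per kb. Within the slow set, TNNC1, TNNT1 and TNNI1 had 65.2%, 22.3% and 13.1%. The composition of the fast set varied little, with TNNT3 from 37.2% to 43.2% of it. Within the slow set TNNC1 ranged from 57.9% to 67.8%, TNNT1 from 19.5% to 27.8% and TNNI1 from 10.6% to 15.7%.

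The slow genes varied widely from pig to pig, and the same pigs stood at the ends for all 3. TNNT1, the slow tropomyosin-binding subunit, had a lowest, median and highest level of 255, 414 and 590 CPM in the high IMF group. In the low IMF group these were 173, 324 and 788 CPM. The whole high IMF range thus lay inside the low IMF range, whose lowest pig was pig 12 and whose highest was pig 7.

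TNNI1, the slow inhibitory subunit, had 176, 278 and 352 CPM as its lowest, median and highest level in the high IMF group and 102, 218 and 621 CPM in the low IMF group. TNNC1, the calcium sensor of slow fibres, had 368, 733 and 1072 CPM in the high IMF group and 209, 475 and 1576 CPM in the low IMF group. For both genes the extremes were again pigs 12 and 7, and the groups overlapped. Between these pigs the normalized level differed 4.56-fold for TNNT1, 6.11-fold for TNNI1 and 7.54-fold for TNNC1. In the study's mapping list, pig 7 had the lowest share of uniquely mapped reads. As shares of all counts, without that normalization, pigs 12 and 7 lay closer together. They had 0.0194% and 0.0638% for TNNT1, 0.0114% and 0.0503% for TNNI1, and 0.0235% and 0.128% for TNNC1. The SD of log2 CPM over the 12 pigs was 0.61, 0.67 and 0.80 in the same order, where the median over the 1332 genes with at least 10000 normalized counts was 0.24. Within the low IMF group the SD was 0.76, 0.90 and 1.00, and within the high IMF group 0.47, 0.42 and 0.59, a difference in spread that was not tested.

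The fast genes were much more even. TNNT3 had 6858, 8608 and 9473 CPM as its lowest, median and highest level in the high IMF group and 7976, 9374 and 10806 CPM in the low IMF group. TNNI2 had 2291, 2806 and 3100.3 CPM in the high IMF group and 2512, 2806 and 3406 CPM in the low IMF group. TNNC2 had 4432, 5429 and 6449 CPM against 4583, 5781 and 6417 CPM. Pig 6 was lowest for all 3 fast genes, and the groups overlapped for each. From the lowest to the highest pig the fast genes differed by 1.46-fold to 1.58-fold, and the SD of log2 CPM was from 0.15 to 0.18.

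TNNT2, the cardiac troponin T, was far lower, with 12 to 291 counts. Its lowest, median and highest level was 0.0827, 1.01 and 1.85 CPM in the high IMF group and 0.310, 0.609 and 1.62 CPM in the low IMF group. The 95% Poisson intervals of the lowest and the highest pig, from 6.20 to 21.0 and from 259 to 326 counts, did not meet. Such intervals cover counting error only and take each count as a separate fragment. Because the totals exceeded the input reads, they may be too narrow. Pigs 3 and 4 were lowest and pigs 2 and 9 highest, so that TNNT2 did not follow the order of the slow genes.

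**Figure D1:**
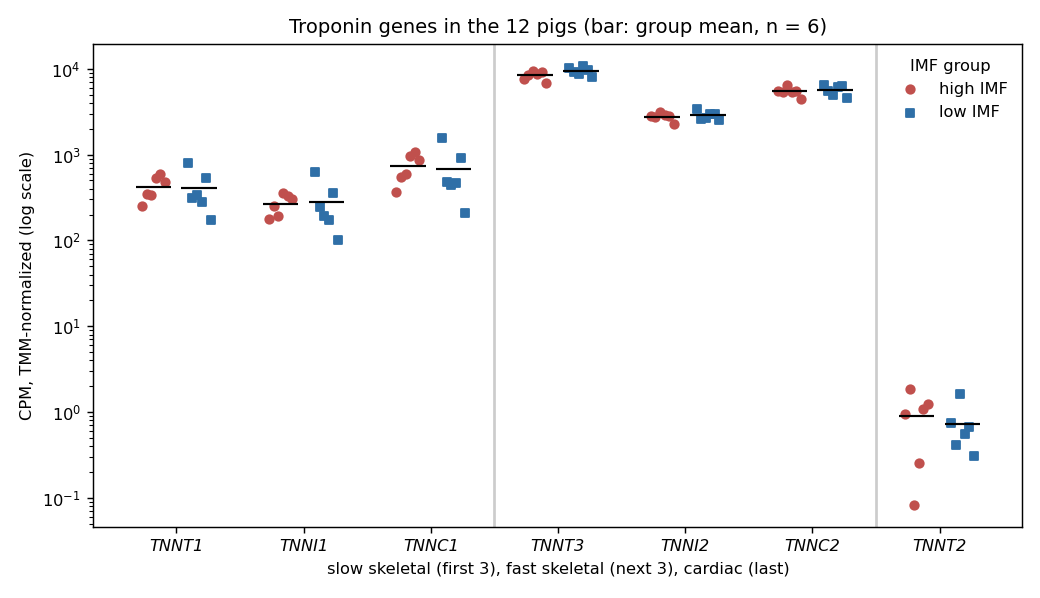
Level of each troponin gene in the 12 pigs, in TMM-normalized CPM on a log axis, with the 6 high IMF pigs as circles, the 6 low IMF pigs as squares and the group mean as a bar. The fast genes lie in narrow bands from 2291 to 10806 CPM, the slow genes spread from 102 to 1576 CPM, TNNT2 reaches at most 1.85 CPM, and the groups overlap for every gene.

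The ratio of slow to fast counts was computed for each subunit in each pig, which removes library size. TNNT1 had from 2.17 to 7.79 counts for every 100 counts of TNNT3. TNNI1 had from 4.05 to 18.2 for every 100 of TNNI2, and TNNC1 from 4.56 to 24.6 for every 100 of TNNC2. Pig 12 had the lowest and pig 7 the highest value of all 3 ratios, and both belong to the low IMF group. Summed per length over the subunits, the slow genes had 3.20 CPM per kb for every 100 CPM per kb of the fast genes in pig 12 and 15.6 in pig 7, a 4.86-fold range. The high IMF pigs lay between, from 4.95 to 12.7 with a median of 9.13, beside a median of 6.06 in the low IMF group. High IMF pigs 6, 5 and 4 ranked 2, 3 and 4 of the 12 pigs, and high IMF pig 1 ranked 10. The pigs of ranks 1 to 5, namely 7, 6, 5, 4 and 11, were all labelled barrows, and the remaining labelled barrow, pig 8, ranked 9. By their Y chromosome counts, pigs 7, 5 and 8 went against this label. A relation of the ratio to labelled sex was not tested. The summed CPM per kb of the slow genes ranged 6.50-fold between pigs, and that of the fast genes 1.47-fold.

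**Figure D2:**
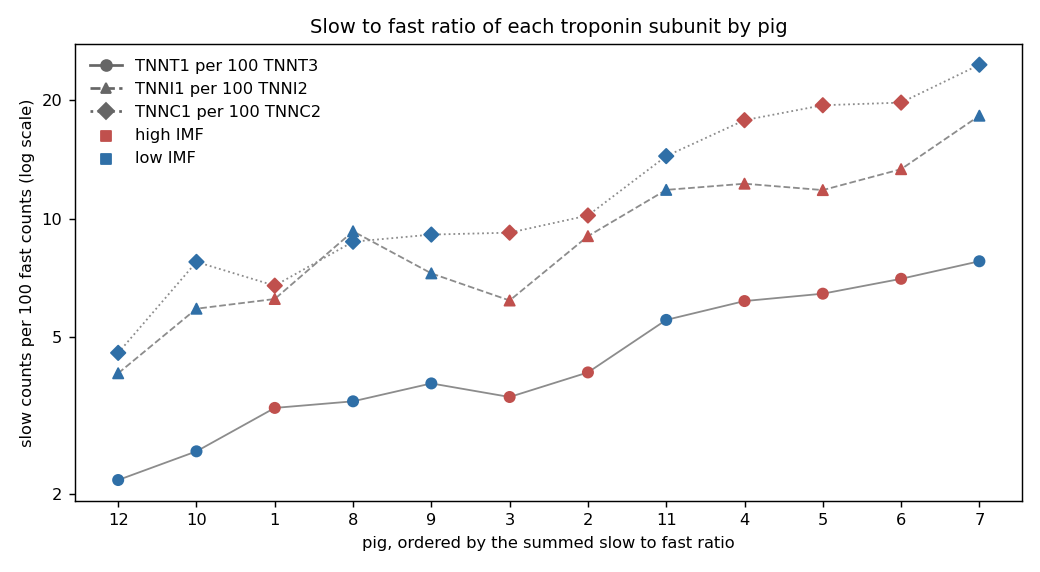
Slow counts per 100 fast counts for troponin T, I and C in each pig, on a log axis, with pigs ordered by the summed ratio and coloured by IMF group. All 3 ratios are lowest in pig 12 and highest in pig 7, both of low IMF, and the pigs of both groups are mixed between them.

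The 3 ratios rose and fell together across pigs, although each came from its own pair of genes. Over the 12 pigs the log2 ratio for troponin T correlated with that for troponin C with Pearson's r = 0.98 (permutation p = 2e-05, adjusted 2e-05) and Spearman's rho = 0.99 (permutation p = 2e-05, adjusted 0.0001). For troponin T and troponin I, r was 0.95 (permutation p = 2e-05, adjusted 2e-05) and rho 0.92 (permutation p = 0.00016, adjusted 0.00025). For troponin I and troponin C, r was 0.96 (permutation p = 2e-05, adjusted 2e-05) and rho 0.90 (permutation p = 0.0002, adjusted 0.00025). Tests were two-sided, 2e-05 is the smallest value that 100000 resamples can give, and adjustment was over 5 relations. Without pigs 7 and 12, which lay farthest from the median, r was 0.96, 0.92 and 0.91 for these 3 relations. With each group centred on its mean it was 0.98, 0.97 and 0.96, so the relation did not rest on the groups. It was 0.99 for each of the 3 among the 6 pigs whose Y chromosome counts matched their labelled sex. The pigs did not fall into separate clusters, since the widest gap, 0.60 of a log2 range of 2.28, set only pig 12 apart. No label ties pigs to slaughter days or sequencing lanes, so these relations could not be examined within such batches.

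**Figure D3:**
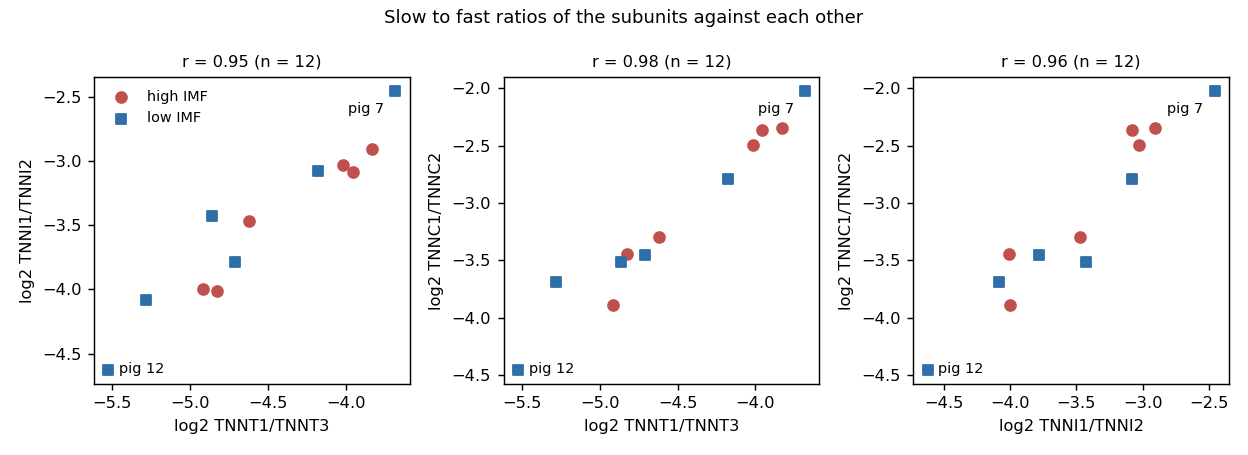
Log2 ratio of slow to fast counts for 1 troponin subunit against another in the 12 pigs, with high IMF pigs as circles and low IMF pigs as squares, and Pearson's r above each panel. The points of both groups lie along 1 line, from pig 12 at the lower end to pig 7 at the upper end.

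The ratio was also set beside other genes of slow fibres. MYH7 could not be used, so the slow myosin light chains MYL2 and MYL3 were taken instead, a choice made after the names in the table were known. The summed log2 ratio correlated with the log2 CPM of MYL2 with r = 0.96 (permutation p = 6e-05, adjusted 6e-05) and rho = 0.86 (permutation p = 0.00066, adjusted 0.00066), and with that of MYL3 with r = 0.92 (permutation p = 2e-05, adjusted 2e-05) and rho = 0.92 (permutation p = 4e-05, adjusted 0.0001), over 12 pigs. Without pigs 7 and 12 these r were 0.96 and 0.85, and among the 6 pigs not against their labelled sex 0.97 for both. Other slow fibre genes followed the ratio less closely, with r = 0.60 for ANKRD2, 0.34 for CSRP3 and 0.27 for MYH7B. Some fast fibre genes also rose with it, and r in that list ran from -0.30 for ATP2A1 to 0.71 for MYOZ1. The median r was 0.76 in the slow fibre list, 0.155 in the fast fibre list and 0.34 in the thin filament list described below. Among 10051 named genes with at least 100 normalized counts, the 5 whose log2 CPM was most like the summed ratio over the 12 pigs were ATP2A2 (r = 0.96), the calcium pump of slow fibres and heart, then MYL2, MYH6 (r = 0.93), MYL3 and ME3 (r = 0.90), a mitochondrial malic enzyme. The 5 most opposed were ANKIB1 (r = -0.89), REEP1 (r = -0.87), THSD4 (r = -0.85), TAF8 (r = -0.84) and SRRM1 (r = -0.84). These 10 are the extremes of a ranking that carries no test. The p-values of MYL2 and MYL3 above belong to the relations and not to this ranking. All 10 genes share libraries with the ratio. MYH6, the gene that may hold MYH7 reads, had from 1672 CPM in pig 12 to 7493 CPM in pig 7, the same pigs as for the slow troponins.

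No troponin gene was called different between low and high IMF. With edgeR's quasi-likelihood test over all 14262 genes, 0% of genes were differentially expressed genes (DEGs), defined by an adjusted p no higher than 0.05 together with an absolute log2FC of 0.58 or more, where positive values mean higher in low IMF. None of the 7 members was a DEG, that is 0 of 7. The unadjusted p was no higher than 0.05 for 0 of 7 members, beside 1486 genes or 10.4% of those tested, 5.38% higher in low and 5.04% higher in high IMF. DESeq2's Wald test called 59 DEGs among these genes, 0.415% of the genes it gave an adjusted p, or 93 genes (0.654%) by adjusted p alone, and again 0 of the 7 members. The high and low IMF ranges overlapped for all 7, as they did for all but 0.659% of the genes tested. The median log2FC over all genes was -0.01.

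TNNT3 had the smallest p of the members. It had 9404 ± 1007 CPM in the low and 8400.3 ± 968 CPM in the high IMF group (SD, n = 6 each). The log2FC was 0.16 ± 0.11 (SE) (edgeR unadjusted p = 0.164, adjusted p = 0.630 with Benjamini-Hochberg adjustment). The other fast genes had smaller differences, a log2FC of 0.04 for TNNI2 (standard error 0.10) and of 0.05 for TNNC2 (standard error 0.12), each with an adjusted p of 0.916. The spread between pigs exceeded these differences.

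The slow genes had log2FC values of either sign and larger errors. TNNT1 had 403 ± 222 CPM in the low and 424 ± 132 CPM in the high IMF group (SD, n = 6 each), and its log2FC was -0.07 (standard error 0.32). TNNI1 had 281 ± 187 against 268 ± 73.2 CPM, a log2FC of 0.07 (standard error 0.36), and TNNC1 had 682 ± 493 against 736 ± 273 CPM, a log2FC of -0.11 (standard error 0.41). Their adjusted p in edgeR ran from 0.951 to 0.966. Pigs 7 and 12 pulled the low IMF mean in opposite directions. Without pig 7 the log2FC was -0.37, -0.32 and -0.54 for TNNT1, TNNI1 and TNNC1, and without pig 12 it was 0.09, 0.25 and 0.09, with no call in either case. For TNNT2 the log2FC was -0.34 (standard error 0.59, adjusted p = 0.878 in edgeR), from 0.718 ± 0.469 against 0.909 ± 0.655 CPM (SD, n = 6 each). It rested on single pigs, at -0.76 without pig 9 and -0.0047 without pig 2, and was 0.02 in limma-voom. Without the 6 pigs against their labelled sex the log2FC was -0.19 for TNNT1, -0.24 for TNNI1, -0.29 for TNNC1, 0.16 for TNNT3, 0.05 for TNNI2, 0.08 for TNNC2 and -1.13 for TNNT2, with an adjusted p of 0.998 for each in edgeR. With all 12 pigs, a change of the size that the study's threshold asks for lies within 2 standard errors of the estimate for TNNT2 and for each slow gene, and outside them for TNNT3, TNNI2 and TNNC2.

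The slow to fast ratio did not differ between the groups beyond the spread between pigs. The log2 ratio of TNNT1 to TNNT3 was -4.71 ± 0.69 in the low and -4.36 ± 0.48 in the high IMF group (SD, n = 6 each), a difference of -0.35 with a standard error of 0.34 (exact permutation p = 0.329, adjusted 0.646). For TNNI1 to TNNI2 it was -3.58 ± 0.76 against -3.42 ± 0.49, a difference of -0.16 with a standard error of 0.37 (exact permutation p = 0.671, adjusted 0.671). For TNNC1 to TNNC2 it was -3.32 ± 0.83 against -2.97 ± 0.66, a difference of -0.35 with a standard error of 0.43 (exact permutation p = 0.431, adjusted 0.646). These tests were two-sided over 924 arrangements of the pigs, of which the smallest possible p is 0.00216, and adjustment was over the 3 ratios. The 3 differences have the same sign, but the ratios vary together and are not separate evidence. The differences rested on pigs 7 and 12. Without pig 7 they were -0.55, -0.38 and -0.61 for troponin T, I and C (exact permutation p = 0.0952, 0.260 and 0.126), and without pig 12 they were -0.18, 0.05 and -0.13. Leaving out the 6 pigs against their labelled sex keeps 4 high and 2 low IMF pigs, too few for an exact test to reach 0.05, and the differences were then -0.51 for troponin T, -0.50 for troponin I and -0.62 for troponin C.

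**Figure D4:**
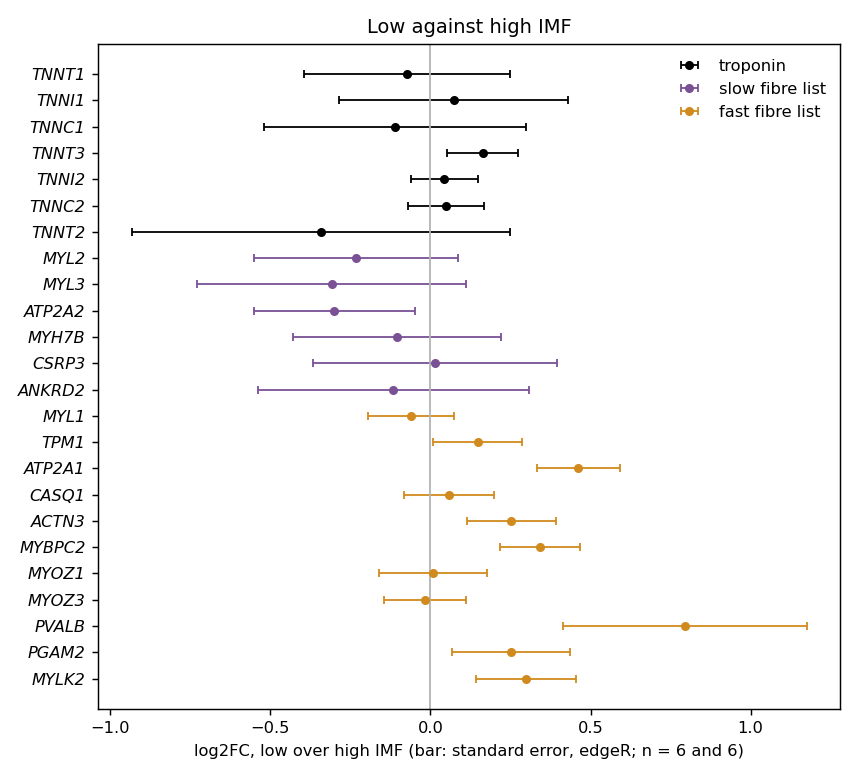
Log2FC, low over high IMF, of the 7 troponin genes, the 6 tested slow fibre genes and the 11 tested fast fibre genes, with the standard error from edgeR (n = 6 pigs per group). The fast troponins have short bars, the slow troponins and TNNT2 have long bars that cross 0, and the bars of TNNT3 and of TPM1, ATP2A1, ACTN3, MYBPC2, PVALB, PGAM2 and MYLK2 of the fast list lie to the right of 0.

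Other genes of the 2 fibre types were read from the same fit. Of 13 slow fibre genes listed, 6 were tested and 0 had an unadjusted p at or under 0.05, with a median log2FC of -0.17. The smallest p were those of ATP2A2 (log2FC -0.30, unadjusted p = 0.253), MYL3 (-0.31, unadjusted p = 0.474) and MYL2 (-0.23, unadjusted p = 0.479) in edgeR. Of 15 fast fibre genes, 11 were tested and 2 had an unadjusted p at or under 0.05, both higher in the low IMF group, where 5.38% of all genes were, and the median log2FC was 0.25. ATP2A1, the calcium pump of fast fibres, had 7137 ± 889.7 CPM in the low and 5181 ± 895 CPM in the high IMF group (SD, n = 6 each; log2FC 0.46, unadjusted p = 0.00343, adjusted p = 0.367 in edgeR). MYBPC2, the fast myosin-binding protein C, had a log2FC of 0.34 (unadjusted p = 0.0158, adjusted p = 0.427). PVALB, a calcium buffer of fast fibres, had 0.80 (unadjusted p = 0.0558). These 3 had the smallest p of their list, and other fast fibre genes had a log2FC as small as the fast troponins, such as MYL1 (-0.06), MYOZ3 (-0.02), MYOZ1 (0.01) and CASQ1 (0.06). Without pig 2 or without pig 12 4 fast fibre genes had such a p, with ACTN3, the fast alpha-actinin, and MYLK2, the skeletal myosin light chain kinase, added. Without the 6 pigs against their labelled sex the count was 0, in a run with 4 high and 2 low IMF pigs. Only 4.05% of all genes had such a p there, so the 0 says little about this list. Without pig 7 MYL3 of the slow list had such a p.

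Of 19 genes of the thin filament and of actin regulation, not all of them partners of troponin, 15 were tested. Of these, 4 had an unadjusted p at or under 0.05, beside the 10.4% of all genes, and the median log2FC was -0.01. LMOD1, a leiomodin, was higher in the low IMF group (log2FC 0.74, unadjusted p = 0.0291). TPM4, a non-sarcomeric tropomyosin (-0.34, unadjusted p = 0.0151), CFL2, the muscle cofilin (-0.28, unadjusted p = 0.0245), and XIRP2, an actin-binding Xin repeat protein (-0.32, unadjusted p = 0.0457), were higher in the high IMF group, where 5.04% of all genes were, all in edgeR with adjusted p from 0.427 to 0.470. TPM1 and TPM2, the striated muscle tropomyosins that carry troponin T, had log2FC values of 0.15 and 0.05. The count was 2 without pig 5 (CFL2 and TPM4) and 1 without pig 6 or without pig 8 (TPM4 in both cases). It was 0 without the 6 pigs against their labelled sex, a run with 4 high and 2 low IMF pigs. In that run only 4.05% of all genes had such a p, so the 0 says little about this list.

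Of 20 regulators of fibre type and of troponin genes, 19 were tested and 6 had an unadjusted p at or under 0.05, all higher in the low IMF group, beside 5.38% of all genes, and the median log2FC was 0.15. PPARGC1A, a coactivator of the slow oxidative programme, had 209 ± 114 CPM in the low and 110.3 ± 33.6 CPM in the high IMF group (SD, n = 6 each; log2FC 0.92, unadjusted p = 0.0197). MEF2D and MEF2A, transcription factors that act in calcium signalling to muscle genes, had 0.44 (unadjusted p = 0.00715) and 0.50 (unadjusted p = 0.0368). EYA4, a transcriptional coactivator, had 0.42 (unadjusted p = 0.0216), TEAD4, an M-CAT binding factor, 0.35 (unadjusted p = 0.0290), and SOX6, a repressor of slow fibre genes, 0.27 (unadjusted p = 0.0289). In edgeR their adjusted p ran from 0.419 to 0.452, so none passed the test over all genes. Without pig 10 the count was 3, namely EYA4, MEF2D and PPARGC1A. Without pig 7 it was 4, namely MEF2A, MEF2D, SOX6 and PROX1, a homeobox factor of slow fibres named after its values were seen. PPARGC1A, EYA4 and TEAD4 had no such p in that run. Without the 6 pigs against their labelled sex, 2 regulators had such a p. PPARGC1A was higher in the low IMF group (log2FC 1.21). PROX1 was higher in the high IMF group (log2FC -0.53). In that run 4.05% of all genes had such a p in either direction, 279 higher in low and 328 higher in high IMF.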

How the data were processed

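Polyadenylated RNA of the Semimembranosus muscle of 12 pigs was sequenced by the study as stranded, paired-end libraries. Per the labels and methods, the authors trimmed reads with Trimmomatic, mapped the rest to Sscrofa11.1 by HISAT2, ran StringTie on known transcripts and deposited raw counts per Ensembl gene from HTSeq. The annotation release, the strand setting and the treatment of multi-mapped reads are not given in the sources used here, so overlapping genes and near-identical copies are uncertain. Names came from a table of Ensembl identifiers, matched by identifier for the counts and by symbol for RefSeq positions.

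From the counts, genes kept by filterByExpr were normalized by TMM and tested by the quasi-likelihood F-test of edgeR 4.0.16 in R 4.3.3. The model held only the IMF group, with Benjamini-Hochberg adjustment over 14262 genes. The standard error is the log2FC over the root of F. CPM use TMM-scaled library sizes, and log2 CPM a prior count of 2. Of 25880 genes, 20341 had at least 1 count. Alternatives were DESeq2's size factors, total counts only, DESeq2's Wald test (1.42.0), limma-voom (3.58.1), other filters, labelled sex or age as a covariate, and fewer pigs. Ratios were compared by exact permutation and relations by 100000 resamples (scipy 1.17.1, Python 3.11.15). Sequences were read from the RefSeq copy of Sscrofa11.1. Some items are not reported here. The edgeR test was checked on simulated counts and the permutation tests on simulated normal values, with outcomes not given here.

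The members, lists and tests were chosen with earlier results of these data known. The text names all members, the 5 genes most like and the 5 most opposed to the summed ratio, and from each list every gene whose unadjusted p was no higher than 0.05, or the 3 smallest p where fewer than 3 had one. TPM1, TPM2, PROX1, other genes of the fibre type lists and the markers in the closing section were named after their values were seen. Pigs are separate animals, and p-values measure the spread between them.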

Additional observations from a re-analysis of the deposited data

Results flagged for a closer look

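In the low IMF group, pig 9 had 1.62 CPM of TNNT2, the cardiac troponin T, where the other 5 low IMF pigs had from 0.310 to 0.747 CPM, a gap of 0.666 of the range of the group, above Dixon's critical value for 6 samples. It rests on 247 counts, with a 95% Poisson interval from 217 to 279.8. This was 1 of 22 groups of values examined for a sample that stands apart, and chance flags about 1 in 20.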

How the results depend on the processing

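The number of DEGs depended on the test. It was 0 with edgeR's quasi-likelihood test, with 1486 genes whose unadjusted p was no higher than 0.05, and also 0 with limma-voom and with the other normalizations, filters and covariates. DESeq2's Wald test gave 59 among the genes edgeR tested and 64 when every gene with a count entered. With each pig left out in turn, edgeR gave from 0 to 1, the 1 without pig 5 or without pig 10. The 1486 became 607 without the 6 pigs against their labelled sex. For the troponin genes, 0 of 154 alternative values of a log2FC had an adjusted or an unadjusted p at or under 0.05, and the smallest adjusted p was 0.549. The 3 differences in log2 ratio stayed above 0.05 in every alternative run, with a smallest exact permutation p of 0.0952, although the 4 against 2 pigs left by the sex check could not have passed it. The 5 relations across pigs stayed under 0.05 in every alternative run, and with single pigs left out r ran from 0.89, for MYL3 without pig 12, to 0.99, for troponin T with troponin C without pig 10. Per coding length, TNNI1 had 487 and TNNI2 5132 CPM per kb, in place of 280.2 and 4156. The planned relation with MYH7 was not run because no identifier carries that name here.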

Other observations

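Myosin heavy chains of developing fibres had counts in every pig. MYH3, the embryonic form, had from 393 to 608 CPM over the 12 pigs and MYH8, the perinatal form, from 874 to 1442 CPM. Both genes belong to a cluster of near-identical genes, so how reads were divided among its members is uncertain. Of the satellite cell markers, PAX7 had from 2.05 to 4.94 CPM and MYF5 from 0.184 to 0.713 CPM.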
